A study of Xenopus laevis with 9 samples.

Results

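The genes of heme synthesis and heme breakdown were followed in XLK-WG cells, a Xenopus laevis (African clawed frog) kidney line, after exposure to ligands of the aryl hydrocarbon receptor (AHR). The members are all probe sets that carry the symbols alas1.L, alas1.S, alad.S, urod.L, ppox.L, fech.L or hmox1.L. These are 7 of the 7531 genes that the arrays name, and they hold 8 probe sets, since urod.L has 2. A probe set is a group of short probes on an Affymetrix array, assigned to a gene by the platform annotation. All 8 passed the filter on low signal and were tested.

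The arrays come from 3 groups of 3 cultures, called biological replicates in the labels. The first received 100 nM FICZ, a photoproduct of tryptophan, and the second 100 nM TCDD, a dioxin. The third received the solvent DMSO alone, at the concentration of 0.25% that the ligand cultures also contained. All were harvested at 3 h, and no genetic change separates the groups. The cells are 1 line in culture, so the values describe that line and not the organ.

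Heme is an iron-containing ring that cytochrome P450 enzymes, among them the AHR target cyp1a1, need for catalysis. Its synthesis starts in the mitochondrion, runs through the cytosol and ends in the mitochondrion with the insertion of iron. In mammals ALAS1, the first enzyme, sets the rate outside red blood cells and is repressed by heme itself, and heme oxygenase opens the ring again to biliverdin, carbon monoxide and iron. Xenopus laevis keeps many genes as a pair of copies from an ancient genome duplication, named .L and .S after the longer and shorter chromosome of each pair. In mice, prolonged exposure to TCDD is known to cause accumulation of uroporphyrin.

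As a check that the ligands acted, both copies of cyp1a1 stood higher than in DMSO with either ligand. The log2 change of cyp1a1.L was 4.82 with FICZ and 3.11 with TCDD. Medians of the arrays as deposited ran from 6.66 to 6.86 in log2 units, and the values below are quantile normalized log2 signals. Of the summed within-group variation, 22.6% came from DMSO replicate 2, the largest share of the 9 arrays. CH, an unexplained tag, stands in the DMSO titles alone, so whatever it marks cannot be told apart from the absence of ligand. Signals of different probe sets are on different scales, and no level of one gene is set against another.

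Of the 8 probe sets, 1 passed limma's test at an adjusted p of 0.05 with FICZ against DMSO, alas1.S, which rose. It was also the 1 that passed with FICZ against TCDD. With TCDD against DMSO 0 of the 8 passed limma's test at an adjusted p of 0.05, and 1, hmox1.L, had an unadjusted p under 0.05. The members under that unadjusted level with FICZ against DMSO were alas1.S and hmox1.L (limma unadjusted p 0.0043). With FICZ against TCDD it was alas1.S only. Over all 11618 tested probe sets, 0.603% were called with FICZ against DMSO (0.525% higher), 0.0258% with TCDD against DMSO (all of them higher) and 0.207% with FICZ against TCDD (0.198% higher). At an unadjusted p under 0.05 the share was 7.42% with FICZ against DMSO, 3.44% with TCDD against DMSO and 3.07% with FICZ against TCDD. An exact two-sided permutation test gave alas1.S p 0.1 in both FICZ comparisons, the smallest that 3 against 3 arrays allow. The same test also gave 0.1 for alas1.L in both and for hmox1.L with FICZ against DMSO, so it does not single out alas1.S.

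**Figure D1:**
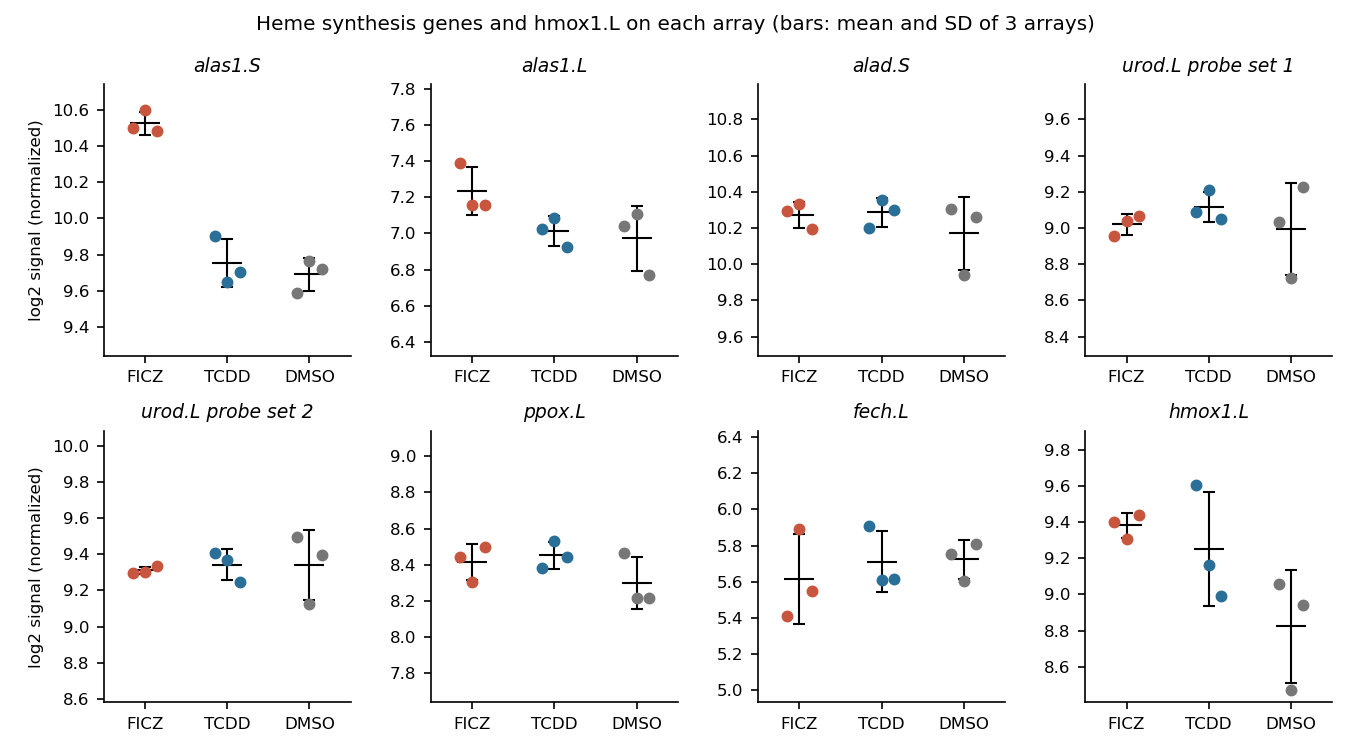
Normalized log2 signal of each member probe set (vertical axis, each panel with its own range of the same height) on the 3 FICZ, 3 TCDD and 3 DMSO arrays, with the mean and SD in black. The 3 FICZ arrays of alas1.S lie between 10.48 and 10.60, above all TCDD and DMSO arrays, while the groups of alad.S, urod.L, ppox.L and fech.L overlap.

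alas1 encodes the first enzyme, 5-aminolevulinate synthase, which joins glycine and succinyl-CoA. The log2 signal of alas1.S was 10.50, 10.60 and 10.48 on the FICZ arrays. It was 9.90, 9.65 and 9.71 on the TCDD arrays, and 9.59, 9.77 and 9.72 on the DMSO arrays. Every FICZ array stood above every other array, and the TCDD and DMSO arrays overlapped.

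The means of alas1.S were 10.53 ± 0.06 with FICZ, 9.75 ± 0.13 with TCDD and 9.69 ± 0.09 with DMSO (SD, n = 3 each). FICZ against DMSO gave a 1.78-fold rise, with a 95% confidence interval from 1.56 to 2.04 (limma, adjusted p 0.00025). By p value this was probe set 15 of 11618 in that comparison, and by the size of the rise it was number 41. FICZ exceeded TCDD by 0.77 on the log2 scale (SE 0.09, limma adjusted p 0.0018). TCDD against DMSO gave a log2 change of 0.06, with an interval from -0.14 to 0.26, so a TCDD rise as large as that with FICZ lies outside the interval. In bulk RNA of cultured cells, more signal per cell and more cells with signal cannot be told apart.

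The call of alas1.S did not rest on 1 array. Without any single array of the 9, its log2 change with FICZ against DMSO stayed between 0.78 and 0.87, with adjusted p values from 0.00016 to 0.0047. Against TCDD the same refits gave 0.72 to 0.85, with adjusted p values from 0.00064 to 0.026. Without DMSO replicate 2 the changes were 0.87 against DMSO and 0.77 against TCDD.

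The other copy, alas1.L, had log2 signals of 7.39, 7.16 and 7.16 on the FICZ arrays. The TCDD arrays gave 7.02, 7.09 and 6.92, and the DMSO arrays 7.04, 7.11 and 6.77. The FICZ arrays again stood above all others, but the lowest of them, FICZ replicate 2, exceeded the highest DMSO array by little. FICZ against DMSO gave a log2 change of 0.26 (interval -0.02 to 0.54), which did not pass (limma adjusted p 0.70). Against TCDD the difference was 0.22 (interval -0.06 to 0.50), and TCDD against DMSO gave 0.04 (interval -0.24 to 0.32). Neither passed. The change with FICZ against DMSO was 0.16 without DMSO replicate 3 and up to 0.33 with another array left out, and the difference from TCDD was 0.15 without FICZ replicate 1. FICZ replicate 1 was the highest array of alas1.L, whereas FICZ replicate 2 was the highest of alas1.S.

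Whether the copies changed by different amounts was asked of the difference itself. Probe sequences were not available, so whether each probe set reads its own copy alone was not checked. On each array the log2 value of .L was subtracted from that of .S for every gene with a tested probe set of both copies, 762 genes in all, and limma compared these differences between groups. With FICZ against DMSO, alas1.S changed by 0.57 more than alas1.L (SE 0.15, interval 0.24 to 0.90). The unadjusted p was 0.0031, and the adjusted p over the 762 genes was 0.14, so the difference between the copies did not pass. With FICZ against TCDD the difference was 0.55 (interval 0.22 to 0.88, adjusted p 0.35), and with TCDD against DMSO it was 0.02 (interval -0.31 to 0.35, adjusted p 0.99). These fits called 1.31% of the genes with FICZ against DMSO, 0.262% with FICZ against TCDD and 0.131% with TCDD against DMSO. Relative to its own DMSO mean, alas1.S stood at 0.81, 0.91 and 0.79 on the FICZ arrays, and alas1.L at 0.41, 0.18 and 0.19. These FICZ values of the copies do not overlap, but the spread of alas1.L on the DMSO arrays, from -0.20 to 0.13, is wide beside its change. The signal of alas1.L lay near the median of all normalized values, 6.80. The effect of signal level on the size of a change was not tested.

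**Figure D2:**
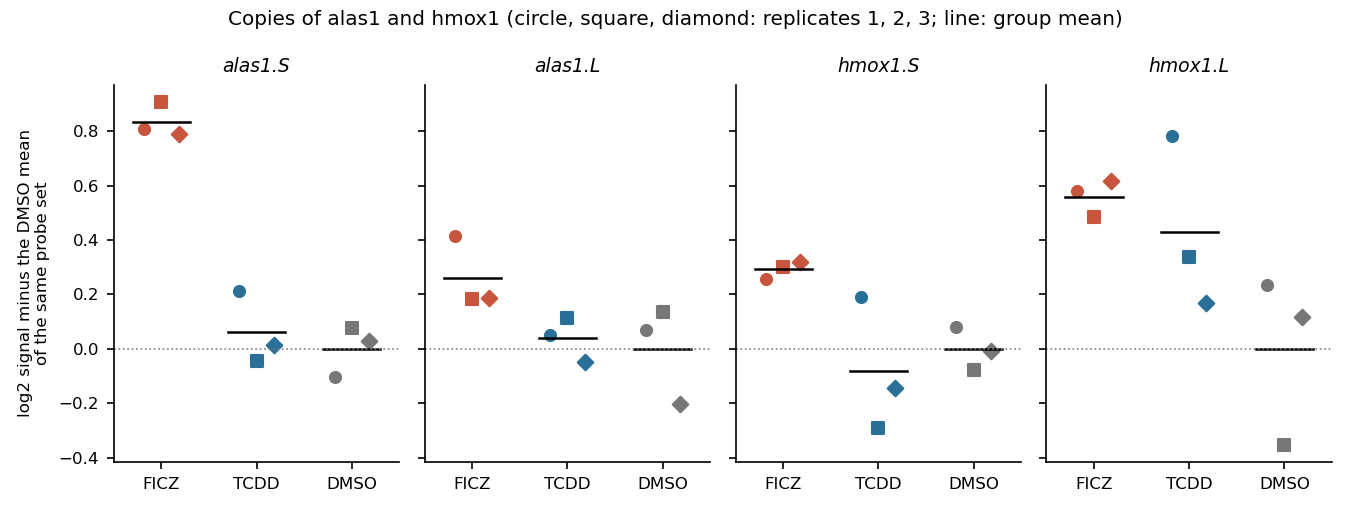
Log2 signal of each copy of alas1 and hmox1 minus the mean of its own DMSO arrays (vertical axis), for the FICZ, TCDD and DMSO arrays; symbols mark replicates 1 to 3 and lines the group means. The FICZ mean of alas1.S lies at 0.83 and that of alas1.L at 0.26, and TCDD replicate 1 is the highest TCDD array for alas1.S, hmox1.S and hmox1.L.

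Of the middle and last enzymes of the pathway, the measured copies alad.S, urod.L, ppox.L and fech.L gave no call in any comparison. No other copy of these genes has a named probe set here, so other copies were not examined. alad.S encodes 5-aminolevulinate dehydratase, the cytosolic enzyme that makes porphobilinogen. Its log2 signal was 10.30, 10.33 and 10.19 on the FICZ arrays and 10.20, 10.35 and 10.30 on the TCDD arrays. The DMSO arrays gave 10.31, 9.94 and 10.26, of which replicate 2 was the lowest of all 9. The changes were 0.10 with FICZ (interval -0.11 to 0.32) and 0.12 with TCDD (interval -0.10 to 0.33).

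urod.L encodes uroporphyrinogen decarboxylase, the enzyme whose activity is lowered in mice that accumulate uroporphyrin. The first of its probe sets read 8.96, 9.04 and 9.06 with FICZ, 9.09, 9.21 and 9.05 with TCDD and 9.03, 8.73 and 9.23 with DMSO. The second read 9.30, 9.30 and 9.33 with FICZ, 9.41, 9.37 and 9.25 with TCDD and 9.50, 9.12 and 9.39 with DMSO. The DMSO arrays had the widest spread in both, and they enclosed all FICZ and TCDD arrays. With FICZ against DMSO the probe sets gave 0.02 (interval -0.24 to 0.29) and -0.03 (interval -0.25 to 0.20). With TCDD they gave 0.12 (interval -0.14 to 0.38) and 0.0042 (interval -0.22 to 0.23).

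ppox.L encodes protoporphyrinogen oxidase, which makes protoporphyrin in the mitochondrion. Its signal was 8.44, 8.31 and 8.50 with FICZ, 8.38, 8.53 and 8.44 with TCDD and 8.47, 8.22 and 8.22 with DMSO. DMSO replicate 1 lay within the range of the ligand arrays, so the groups overlapped. The changes were 0.11 with FICZ (interval -0.13 to 0.35) and 0.15 with TCDD (interval -0.09 to 0.39).

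fech.L encodes ferrochelatase, which inserts the iron. Its signal was 5.41, 5.89 and 5.55 with FICZ, 5.91, 5.61 and 5.62 with TCDD and 5.75, 5.61 and 5.81 with DMSO. It had the lowest mean of the 8 probe sets, beside a filter level of 4.88, and the widest intervals. The changes were -0.11 with FICZ (interval -0.50 to 0.28) and -0.01 with TCDD (interval -0.40 to 0.38). FICZ against TCDD gave differences between -0.09 and -0.01 for alad.S, urod.L, ppox.L and fech.L, none of which passed.

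**Figure D3:**
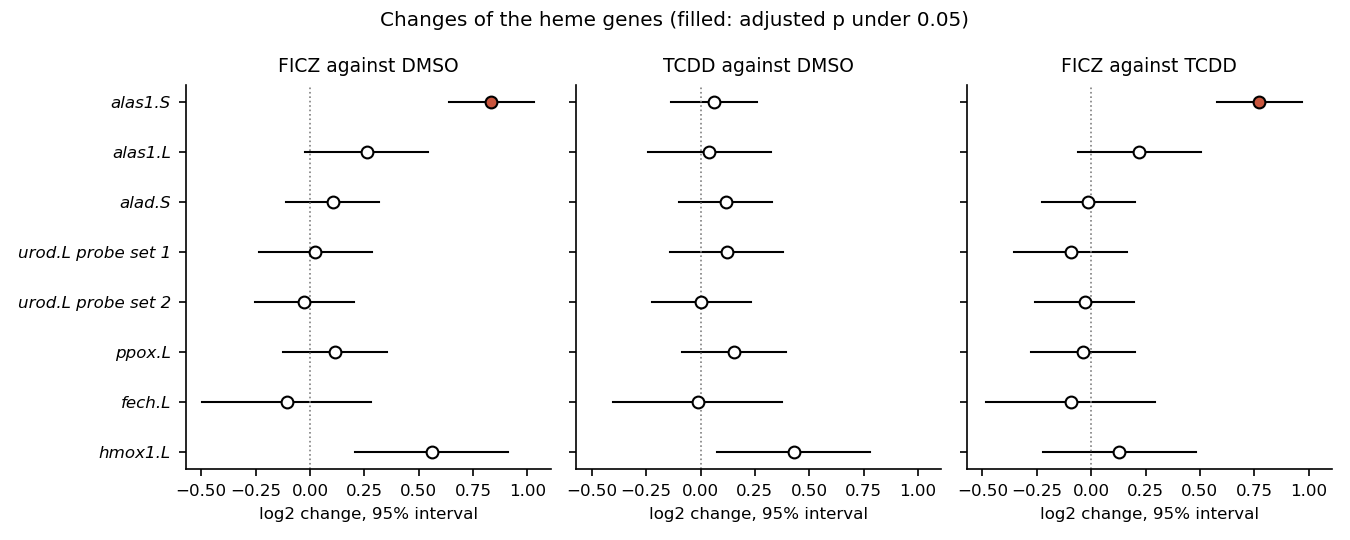
Log2 change with its 95% confidence interval (horizontal axis) of each member probe set in the 3 comparisons; filled points have an adjusted p under 0.05. The filled points are alas1.S with FICZ against DMSO (0.83) and against TCDD (0.77), and the intervals of hmox1.L lie above 0 with either ligand against DMSO although its adjusted p values do not pass.

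hmox1 encodes the inducible heme oxygenase, the enzyme that degrades heme. The log2 signal of hmox1.L was 9.40, 9.31 and 9.44 with FICZ, 9.60, 9.16 and 8.99 with TCDD and 9.06, 8.47 and 8.94 with DMSO. The FICZ arrays lay close together and above all DMSO arrays. The TCDD arrays overlapped both groups, and 2 of them stood above all DMSO arrays. The means were 9.38 ± 0.07 with FICZ, 9.25 ± 0.32 with TCDD and 8.82 ± 0.31 with DMSO (SD, n = 3 each).

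FICZ against DMSO gave hmox1.L a log2 change of 0.56 (interval 0.21 to 0.91), with an unadjusted p of 0.0043 and a limma adjusted p of 0.26. TCDD against DMSO gave 0.43 (interval 0.08 to 0.78, unadjusted p 0.020, limma adjusted p 0.97). Neither passed. The FICZ minus TCDD difference was 0.13, with an interval from -0.22 to 0.48. With array weights, which give noisier arrays less influence, that difference was 0.36 and passed (limma adjusted p 0.036), in a fit that called 358 of the 11618 probe sets against 24 without weights. The same weights gave hmox1.L a change of 0.41 with FICZ (limma adjusted p 0.14) and 0.05 with TCDD (limma adjusted p 0.82), both against DMSO. The sizes depended on single arrays. Without DMSO replicate 2 the change was 0.38 with FICZ and 0.25 with TCDD, and without TCDD replicate 1 the change with TCDD was 0.25. The FICZ minus TCDD difference was 0.30 without TCDD replicate 1, 0.083 without TCDD replicate 2 and 0.00044 without TCDD replicate 3.

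The .S copy of hmox1, which is not among the 7 genes, is shown beside it because it is the other measured copy. hmox1.S read 11.14, 11.19 and 11.20 with FICZ, 11.08, 10.60 and 10.74 with TCDD and 10.97, 10.81 and 10.88 with DMSO. All FICZ arrays stood above all others, and TCDD replicates 2 and 3 stood below all DMSO arrays. Its changes were 0.29 with FICZ (interval 0.08 to 0.51, limma adjusted p 0.40) and -0.08 with TCDD (interval -0.30 to 0.13), and the FICZ minus TCDD difference was 0.37 (interval 0.16 to 0.59, limma adjusted p 0.39). None passed. The change of hmox1.S minus that of hmox1.L was -0.27 with FICZ (interval -0.57 to 0.04) and -0.51 with TCDD (interval -0.81 to -0.21). The TCDD difference had a limma adjusted p of 0.37 over the 762 genes. The comparison of the hmox1 copies was added after their values were seen. With 1 array left out at a time, this difference ran from -0.34 (without DMSO replicate 1) to -0.13 (without DMSO replicate 2) with FICZ, and from -0.61 to -0.37 with TCDD. hmox2.S, the gene of the constitutive heme oxygenase, changed by 0.19 with FICZ and by 0.10 with TCDD, and neither passed.

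TCDD replicate 1 was the highest TCDD array for alas1.S, hmox1.L and hmox1.S, and also for both copies of cyp1a1. cyp1a1.L read 10.36 on it against 9.43 and 9.46 on the other TCDD arrays, and cyp1a1.S read 9.25 against 8.23 and 8.17. alas1.L did not share this order, since TCDD replicate 2 was its highest. DMSO replicate 1, without ligand, was also the highest DMSO array for both copies of cyp1a1 and of hmox1. cyp1a1.L read 7.01 on it against 6.32 and 6.60, and hmox1.S read 10.97 against 10.81 and 10.88. For alas1.S it was the lowest DMSO array, at 9.59 against 9.77 and 9.72. The cause of these orders was not tested. Without TCDD replicate 1 the change of alas1.S with TCDD against DMSO was -0.015.

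Counting arrays in place of p values, 3 of the 8 probe sets had all FICZ arrays above all DMSO arrays, namely alas1.S, alas1.L and hmox1.L. Of the 11618 probe sets, 6.23% had this order and 12.3% had no overlap in either direction. The members were chosen with earlier results of these data known, so these counts describe them and are no test. With FICZ against TCDD, alas1.S and alas1.L had all FICZ arrays higher, as had 5.12% of all probe sets (10.3% in either direction). With TCDD against DMSO 0 of the 8 had no overlap, against 7.82% of all probe sets in either direction and 4.21% in the higher one. The median change of the 8 probe sets was 0.11 with FICZ and 0.09 with TCDD, against -0.0025 and 0.0011 over all probe sets. Both medians of the 8 rest on the same DMSO arrays. They were 0.030 and 0.049 without DMSO replicate 2, and 0.18 and 0.11 without DMSO replicate 1. Array weights gave 0.025 with either ligand.

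Of the 9 heme synthesis enzymes listed, 5 have a named probe set. alas2, hmbs, uros and cpox were not analysed here. alas1.S was the 1 of 7 synthesis probe sets that passed with FICZ against DMSO, beside 0.603% of all probe sets. A positive change was seen in 5 of the 7, beside 49.3% of all. Of 3 heme breakdown probe sets 0 passed.

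The genes around the pathway were read from lists of heme transport, iron handling, regulators and precursor supply. Of 14 tested probe sets for transport or binding of heme and porphyrins, 0 passed with FICZ against DMSO, and 1 had an unadjusted p under 0.05. It was gstp1.L, a glutathione transferase (log2 change 0.62, limma adjusted p 0.10). The list's median change was 0.09 with FICZ and 0.08 with TCDD.

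Of 22 tested probe sets for iron uptake, storage and iron-sulfur assembly, 0 passed in any of the 3 comparisons. The smallest p values with FICZ belonged to slc25a28.S, a mitochondrial iron carrier, with a log2 change of -0.24 (limma adjusted p 0.53), and to fdxr.L, ferredoxin reductase, with -0.28 (limma adjusted p 0.56). slc25a28.S had a change of -0.21 with TCDD (limma adjusted p 0.97). The list's median change was 0.05 with FICZ and 0.07 with TCDD.

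Of 18 tested probe sets for regulators of alas1 and hmox1, 0 passed in any comparison. With FICZ 2 of the 18 had an unadjusted p under 0.05, beside the 7.42% of all probe sets given above. They were rxra.L, a nuclear receptor partner, with 0.59 (limma adjusted p 0.073), and 1 of the 2 probe sets of clpp.L, the protease subunit that acts with the unfoldase CLPX, with 0.34 (limma adjusted p 0.47). With TCDD rxra.L gave 0.31 (unadjusted p 0.035) and the same clpp.L probe set 0.27 (unadjusted p 0.048), and both had a limma adjusted p of 0.97. The other clpp.L probe set gave 0.04 with FICZ and 0.10 with TCDD. nfe2l2.L, the gene of NRF2, which activates hmox1 in mammals, changed by 0.17 with FICZ and 0.03 with TCDD, and keap1.L, its inhibitor, by 0.32 and 0.27. None passed.

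Of 20 tested probe sets for the supply of succinyl-CoA and glycine, 0 passed limma's test with either ligand, and 0 reached an unadjusted p of 0.05. Their changes ran from -0.19 to 0.18 with FICZ and from -0.16 to 0.16 with TCDD. Of 22 tested probe sets of heme proteins and proteins that act with them, 2 passed with FICZ and 2 with TCDD. In each case these were the copies of cyp1a1, which rose. gucy1b1.S, the heme-binding subunit of soluble guanylate cyclase, was next with FICZ (0.46, limma adjusted p 0.23). The 1 probe set of this list that passed with FICZ against TCDD was cyp1a1.L, which was higher with FICZ (log2 difference 1.71, limma adjusted p 0.0025). cyp1a1.S, with a difference of 0.57, did not pass.

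**Figure D4:**
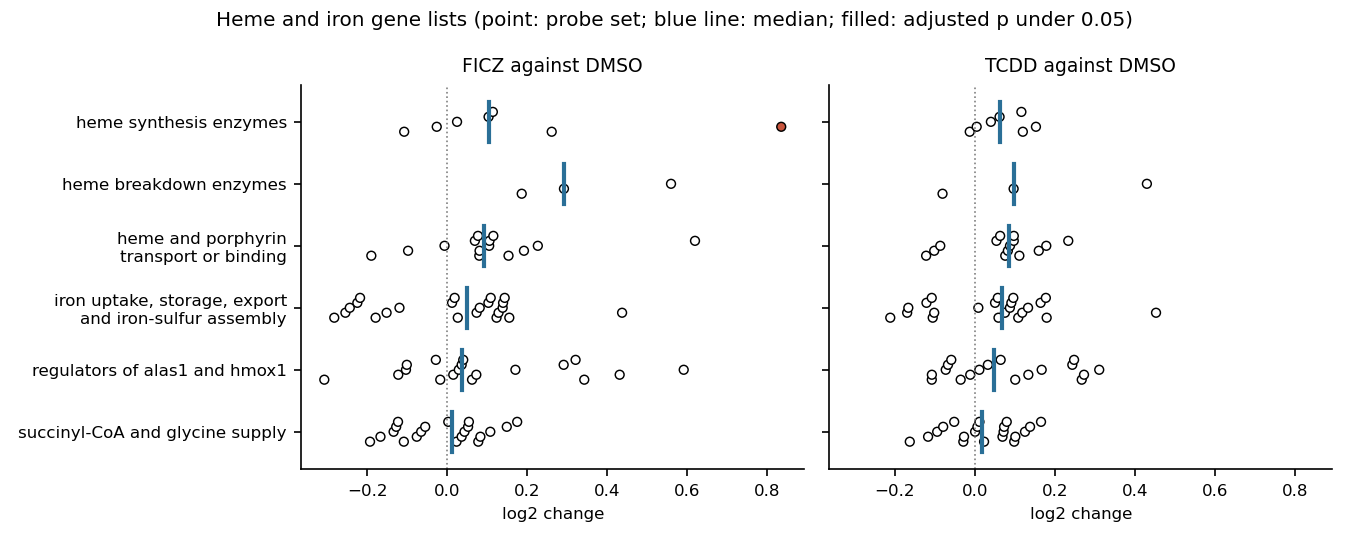
Log2 change (horizontal axis) of every tested probe set in 6 gene lists with FICZ against DMSO (left) and TCDD against DMSO (right); blue lines are list medians and filled points have an adjusted p under 0.05. The 1 filled point is alas1.S with FICZ at 0.83, while the points of succinyl-CoA and glycine supply stay between -0.19 and 0.18; the heme protein list is left out because cyp1a1.L reaches 4.82.

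By the pattern over the 9 arrays, the named probe sets most like alas1.S were sbk1l.L (Pearson r 0.98), syne1.L, a nuclear envelope protein gene (0.98), thbs3.L, a thrombospondin gene (0.97), ppp3cc.L, a calcineurin subunit gene (0.97), and capn1.L, a calpain gene (0.96). These r values describe 9 arrays and mostly the gap between the 3 FICZ arrays and the other 6. thbs3.L read 9.63, 9.66 and 9.64 with FICZ, against 8.85, 8.86 and 8.88 with TCDD and 8.65, 8.86 and 8.57 with DMSO. After the group means were removed, r was 0.89 for sbk1l.L, 0.68 for syne1.L, 0.25 for thbs3.L, 0.61 for ppp3cc.L and 0.90 for capn1.L. These genes were chosen by r over the same 9 arrays, so the values within groups describe them and are no test. For cyp1a1.L the r over 9 arrays was 0.80, and for alas1.L it was 0.68. On the TCDD arrays cyp1a1.L stood above all DMSO arrays, and alas1.S did not.

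Markers of other cell types were read beside these results. Of 24 probe sets of red blood cell genes, which make most heme in an animal, 14 passed the filter, and 0 of them passed limma's test in any comparison. The summed log2 signal of all 24 ran from 134.1 to 134.4 with FICZ, from 132.9 to 139.1 with TCDD and from 134.6 to 139.1 with DMSO. hbd.S is part of these sums though it lay under the filter, and it was at 0 on 3 of the 9 arrays. It averaged 0.0068 with FICZ, 1.11 with TCDD and 2.38 with DMSO, so the sums lean on a probe set at the floor. slc4a1.L, the anion exchanger of red cells, lay under the filter too. Among those that passed, ca2.S (carbonic anhydrase) averaged 10.09 with FICZ, 9.82 with TCDD and 9.78 with DMSO. The globin probe set hba3.L averaged 6.10 with FICZ, 5.86 with TCDD and 5.70 with DMSO, and hba1.S averaged 5.72 with FICZ, 5.43 with TCDD and 5.24 with DMSO. hbg1.L, gata1.L and 3 probe sets of nfe2.S passed the filter too. Others averaged lower with FICZ than with DMSO, among them gata1.L (5.89 against 6.02) and the rhag.L probe set that passed the filter (5.58 against 5.77). The globin probe set hba2.L, under the filter, averaged 4.37 with FICZ against 4.69 with DMSO. Of the 14, 9 had a positive change with FICZ against DMSO, with a median of 0.09. The 1 with an unadjusted p under 0.05 was a probe set of epb41.L, a membrane skeleton gene, with -0.40 (limma adjusted p 0.23). Of 21 probe sets of kidney epithelial genes 9 passed the filter. They were both copies of krt19, atp1b1.S, aqp2.S, aqp3.L, pax8.L and some probe sets of pax2.L. Other pax2.L probe sets, cdh1.S, epcam.L, epcam.S and lhx1.L were among those that did not. The sum over all 21 ran from 102.8 to 109.0 with FICZ, from 103.2 to 106.4 with TCDD and from 104.2 to 107.4 with DMSO. It too includes the probe sets under the filter, among them emx2.L, which was at 0 on 1 array. Of 18 probe sets of fibroblast genes 11 passed the filter, including both copies of vim and probe sets of col1a1.S, col3a1.S and pdgfra.L, while col1a2.L, acta2.L and lum.L lay under it. The sum over all 18, those under the filter included, ran from 122.3 to 124.7 with FICZ, from 120.0 to 125.6 with TCDD and from 124.2 to 127.5 with DMSO. With FICZ against DMSO 0 of these 11 had a positive change, where 49.3% of all probe sets had one, and their median was -0.12. 0 passed limma's threshold and 1, of pdgfra.L, had an unadjusted p under 0.05. With TCDD against DMSO 2 of the 11 had a positive change, with a median of -0.18, so mostly lower values were seen with either ligand. Both comparisons rest on the same DMSO arrays. With FICZ against TCDD 6 of the 11 were positive, with a median of 0.0091. Several of the 11 belong to the same gene, so they are not independent. The part of these markers in the rise of alas1.S was not tested.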

How the data were processed

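The authors deposited 1 value per probe set and array, in log2 units that bottom out at 0 (the base was read from the values). The submitters' processing notes name GCOS, and no algorithm or scaling is given in the sources used here. Detection calls were not used. Of 15611 probe sets, 120 controls were left out of tests. Symbols came from the platform annotation, updated by gene identifier (2 changed). Array medians differed by over 0.1, so values were quantile normalized, and means below 4.88, the 25th percentile, were filtered out. limma 3.58.1 in R 4.3.3 (lmFit, eBayes with trend=TRUE) modelled 3 group means over the 9 arrays together, with two-sided p values adjusted by Benjamini-Hochberg over 11618 probe sets. In the fit of the copies each copy was read from its brightest probe set, and the variance trend ran over the mean difference. The procedure was also run on simulated data with independent noise. The arrays have the correlated deviations given below, so that run does not check their effect. Named genes are all members, list genes past the threshold or with the smallest p, the defining cell type markers (named after their values were seen, as were nfe2l2.L and keap1.L) and the 5 probe sets most like alas1.S. The members and lists were chosen with earlier results of these data known. No read depth exists for arrays, and 3 per group limit the precision. Whether replicates came from separate passages is not stated, so p values measure the spread between these samples. Alternatives were other normalizations, filters, variance priors, array weights, a replicate block, 2-group fits and leaving out each array. Figures were drawn with matplotlib 3.10.9.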

Additional observations from a re-analysis of the deposited data

How the results depend on the processing

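The number of member probe sets past the threshold was 1 with FICZ against DMSO and 0 with TCDD against DMSO in each of the 17 refits. With FICZ against TCDD it was 1, except with array weights, where it was 2 and where 358 of all 11618 probe sets passed, against 24 without weights. The added probe set was hmox1.L (log2 difference 0.36, limma adjusted p 0.036). alas1.S passed in all 17 refits of both FICZ comparisons, with adjusted p values up to 0.0076 against DMSO and 0.031 against TCDD. The difference between the alas1 copies did not pass in any refit, with adjusted p values from 0.063 (filter at the 50th percentile) to 0.41 for FICZ against DMSO and from 0.098 to 0.97 for FICZ against TCDD. That filter leaves fech.L untested.

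Changes near 0 turned sign in some refits, none of them past the threshold. With array weights alas1.L with TCDD was -0.032, the first urod.L probe set with FICZ -0.051, and the second -0.18 with TCDD and 0.043 for FICZ against TCDD. With cyclic loess the second gave -0.0041 with TCDD. When arrays were left out one at a time, values with TCDD against DMSO ran from -0.063 to 0.14 for the copy difference of alas1, from -0.015 to 0.11 for alas1.S, from -0.062 to 0.11 for alas1.L, from -0.00022 to 0.18 for alad.S, from -0.015 to 0.23 and from -0.10 to 0.083 for the urod.L probe sets, and from -0.11 to 0.036 for fech.L. With FICZ against DMSO they ran from -0.012 to 0.17 for alad.S and from -0.11 to 0.14 and from -0.13 to 0.054 for the urod.L probe sets. For FICZ against TCDD they ran from -0.055 to 0.027 for alad.S, from -0.078 to 0.0037 for the second urod.L probe set, from -0.078 to 0.016 for ppox.L and from -0.23 to 0.0098 for fech.L.

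With the replicate number as a block, 89 probe sets passed with FICZ against DMSO in place of 70, and the member counts were 1, 0 and 1 as before. Deviations of same-numbered TCDD and DMSO arrays correlated at 0.48, 0.27 and -0.0040. Same-numbered FICZ and DMSO arrays gave -0.14, -0.0096 and -0.046. Among differently numbered arrays, TCDD replicate 3 and DMSO replicate 2 gave 0.25, and TCDD replicate 1 and DMSO replicate 2 gave -0.35. The FICZ titles and descriptions also number the arrays differently, so the numbers were not taken as pairs. Counts over all probe sets moved more. For FICZ against DMSO (70), 154 passed with array weights, 40 without the variance trend and 26 to 87 with an array left out. For TCDD against DMSO (3), 22 passed with array weights, 1 without the trend, 7 without DMSO replicate 2 and 5 without DMSO replicate 3. For FICZ against TCDD (24), 8 passed without the trend, 40 in a fit of those groups alone and 11 to 41 with an array left out. The cause of these shifts was not tested.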
